A study of Homo sapiens with 6 samples.

Results

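The EGF family ligands and ERBB receptors described here were 9 genes, the ligands EREG, AREG, HBEGF, TGFA, BTC and NRG1 and the receptors EGFR, ERBB2 and ERBB3. They were read from every probe set that the platform annotation gives to one of these symbols alone. This rule found 34 of the 54675 probe sets on the array, for 8 of the 19775 genes that have a probe set of their own. No probe set was found under the symbol AREG, the gene of amphiregulin, which was not analysed here. Cultured Daoy cells, an established human medulloblastoma line kept in serum-containing medium, were exposed to 1 µM thapsigargin for 3 h (Tg 3 h, 2 arrays) or for 8 h (Tg 8 h, 2 arrays), or were left untreated (2 arrays). Thapsigargin blocks the calcium pump of the endoplasmic reticulum and sets off the unfolded protein response (UPR). The arrays are numbered replicate 1 and replicate 2 in each group, from 2 independent experiments by the study's methods, and the same 2 untreated arrays serve both time points. When the untreated cells were harvested is not given in the sources used here, so time in culture may not be matched, and it cannot be told apart from the treatment in the differences from untreated cells. All cells come from 1 line, so the p-values reflect how far these arrays differ, not how far tumors do.

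Ligands of the EGF family are made as membrane-anchored precursors, and proteases such as ADAM17 release the active growth factor. EREG, AREG, HBEGF, TGFA and BTC bind EGFR, some of them also ERBB4, whereas NRG1 binds ERBB3 and ERBB4. ERBB2 has no known ligand of its own and pairs with the other receptors, and ERBB3, a weak kinase, signals through its partners. Bound receptors start the RAS-ERK and PI3K-AKT cascades, whose target genes include feedback inhibitors of the same pathway.

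A pair of ligands stood out from the rest of the family in their signals, at different times. HBEGF was highest at 3 h and EREG at 8 h. Neither gene passed an adjusted p of 0.05 in limma unless replicate number entered the model. With that term HBEGF was called at 3 h and EREG at 8 h. EGFR, ERBB2, ERBB3 and the other tested ligands were called at neither time, with or without it. Without the term, NRG1 206237_s_at and EGFR 224999_at also had an unadjusted p under 0.05 at 8 h. In limma on log2 signals, with all 6 arrays and adjustment over the 27616 probe sets tested, 0 of the 17 tested member probe sets passed an adjusted p of 0.05 at 3 h, at 8 h or between the times. Of all tested probe sets, that fit called 0.0543% as higher in Tg 3 h than in untreated cells and 0.0% as lower. For Tg 8 h the shares were 0.514% higher against 0.145% lower, and Tg 8 h set against Tg 3 h had 0.0% in both directions. At an unadjusted p under 0.05, 2 members were higher in Tg 3 h and 4 in Tg 8 h, with 0 lower in either. Over all tested probe sets that looser threshold was passed by 2.85% as higher and 1.22% as lower in Tg 3 h, and by 4.74% as higher and 5.23% as lower in Tg 8 h. Tg 8 h against Tg 3 h had 0 members higher but 1 lower, where 2.54% of all probe sets were higher and 3.99% lower. With the replicate number as a block, the fit called 2 members higher at 3 h, both probe sets of HBEGF, where 0.902% of all tested probe sets were called higher and 0.0905% lower. At 8 h it called 1 member higher, EREG, against 3.79% of all probe sets higher and 2.8% lower. The EREG probe set entered the test through treated arrays only, and the study had picked this gene from the same arrays. Its call is therefore a description and not independent support. At 8 h against 3 h it called 1 member lower, a probe set of HBEGF, against 1.28% higher and 1.18% lower. Limma without an intensity trend called 0 members in all 3 comparisons. So did a local pooled error test written here after the kind the study's methods name.

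Signals are MAS5 intensities that had been scaled to a shared trimmed mean before deposit. They can be compared between arrays for 1 probe set, but not between genes. Testing required 2 or more of the 6 arrays to reach a signal of 100, and a probe set is called near background in a group when both arrays are under 100. As a second measure of background, the 107 probe sets of olfactory receptor genes, which these cells are not known to use, had a 95th percentile of 76.7 to 142 on the 6 arrays. Of the 34 member probe sets, 17 were tested, 13 of them were at 100 or more on all 6 arrays, and 12 of the 34 were under 100 on every array. In untreated cells 19 were near background. The remaining 4 tested probe sets, 1 each of EREG, TGFA, NRG1 and ERBB3, reached 100 on arrays of treated cells only, so they entered the test through the groups in which they were high.

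**Figure D1:**
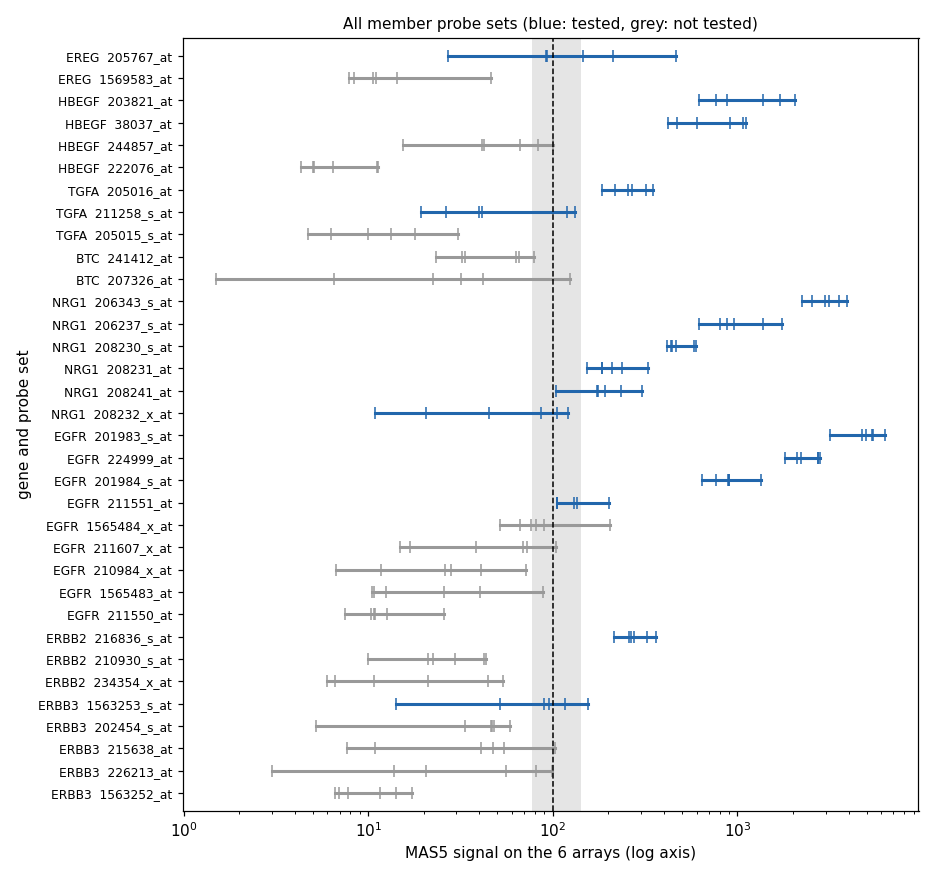
MAS5 signal (log axis) of all 34 member probe sets, with a tick for each of the 6 arrays and a line over their range, in blue for the 17 tested and in grey for the others. The dashed line marks a signal of 100 and the band the 95th percentile of olfactory receptor probe sets, 76.7 to 142. All 6 probe sets of NRG1 were tested and neither of the 2 of BTC.

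Both treated arrays lay above both untreated arrays for 9 of the 17 tested members at 3 h and below them for 1, against 14.0% of all tested probe sets above and 15.9% below. At 8 h the counts were 10 above and 1 below, against 14.9% and 24.5%. The median log2 fold change of the 17 was 0.36 at 3 h, against -0.02 over all tested probe sets, and 0.48 at 8 h, against -0.09. These counts are a description, since NRG1 accounts for 6 of the 17 and EGFR for 4, and since the 4 probe sets named above passed the filter through treated arrays.

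EREG encodes epiregulin, a ligand of EGFR and ERBB4, and is among the genes that the study itself chose from these arrays, so its direction is not independent evidence. Its probe set 205767_at had 145.1 and 93.3 in Tg 3 h, 465.6 and 212.6 in Tg 8 h, and 91.2 and 27.1 in untreated cells. Both 8 h arrays lay above all the other arrays, and both 3 h arrays lay above both untreated arrays, 1 of them by a narrow margin. In untreated cells the gene was near background on both arrays, and its Tg 3 h signals lay within the 76.7 to 142 range of the olfactory receptor percentiles or just above it. The other probe set, 1569583_at, stayed under 100 on every array, at 7.9 to 46.0, and was not tested.

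At 8 h the log2 fold change of EREG was 2.66 (fold 6.33, SE 0.72, 95% interval 1.01 to 4.32) and its unadjusted p was 0.00599. The adjusted p was 0.212 in limma, 1.0 in the local pooled error test (0.0559 before adjustment) and 0.0123 with the replicate block, and it ran from 0.0123 to 1.0 over the alternatives. Within replicate 1 the log2 difference was 2.35 and within replicate 2 it was 2.97. Much of its size rests on untreated signals near background, because with signals under 100 raised to 100 the value was 1.65. It was 1.79 without untreated replicate 2 and 3.54 without untreated replicate 1. At 3 h the log2 fold change was 1.23 (95% interval -0.43 to 2.88), with an adjusted p of 0.384 under the block and 0.67 and 1.78 within the replicates. With the floor of 100 it was 0.27, so a rise of EREG at 3 h was not detectable above background. The step between the times, Tg 8 h against Tg 3 h, was 1.44 (95% interval -0.22 to 3.09; adjusted p = 0.816, and 0.193 with the block). The order of the levels was therefore Tg 8 h, Tg 3 h, untreated, with neither neighbouring step passing a test.

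HBEGF encodes heparin-binding EGF-like growth factor, a ligand of EGFR and ERBB4. Its probe set 203821_at had 1700.3 and 2041.5 in Tg 3 h, 768.5 and 1376.2 in Tg 8 h, and 619.9 and 873.4 in untreated cells. The probe set 38037_at, a second measure of the gene, had 1075.2 and 1118.1 in Tg 3 h, 607.0 and 909.7 in Tg 8 h, and 419.2 and 469.9 in untreated cells. In both, the 3 h arrays were above all others. The 8 h arrays overlapped the untreated arrays in the first probe set and lay above them in the second. All of these signals were at least 100 on every array, unlike those of 244857_at (15.4 to 100.7) and 222076_at (4.3 to 11.3), which were not tested.

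At 3 h the log2 fold change of HBEGF was 1.34 in 203821_at (fold 2.53, SE 0.32, 95% interval 0.60 to 2.08) and 1.30 in 38037_at (fold 2.47, SE 0.26, 95% interval 0.71 to 1.90). The unadjusted p was 0.00305 for the first and 0.00102 for the second, and the adjusted p was 0.475 and 0.284 in limma. With the block the adjusted p was 0.007 for 203821_at and 0.0125 for 38037_at, so HBEGF rose at 3 h in the blocked fit only. Within the replicates the first probe set gave 1.46 and 1.22 and the second 1.36 and 1.25. Over the alternatives the adjusted p ran from 0.007 to 1.0 and from 0.0125 to 1.0. Leaving out any 1 array kept the log2 fold change between 1.09 and 1.59 for 203821_at and between 1.22 and 1.39 for 38037_at.

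By 8 h the difference from untreated cells was 0.48 in 203821_at (95% interval -0.25 to 1.22) and 0.74 in 38037_at (95% interval 0.15 to 1.34), with adjusted p of 0.155 and 0.0527 under the block. Set directly against Tg 3 h, Tg 8 h was lower in 203821_at, with a log2 difference of -0.86 (95% interval -1.59 to -0.12; adjusted p = 0.676, and 0.0389 with the block). The same step was -0.56 in 38037_at (adjusted p = 0.792, and 0.193 with the block). Both replicates showed this direction in both probe sets, with -1.15 and -0.57 in the first and -0.82 and -0.30 in the second. Averaged over the 2 probe sets, HBEGF was 1.32 log2 units above untreated cells at 3 h and 0.61 above at 8 h. EREG and HBEGF thus had their highest signals at different times, although a test of the difference between the genes was not run.

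**Figure D2:**
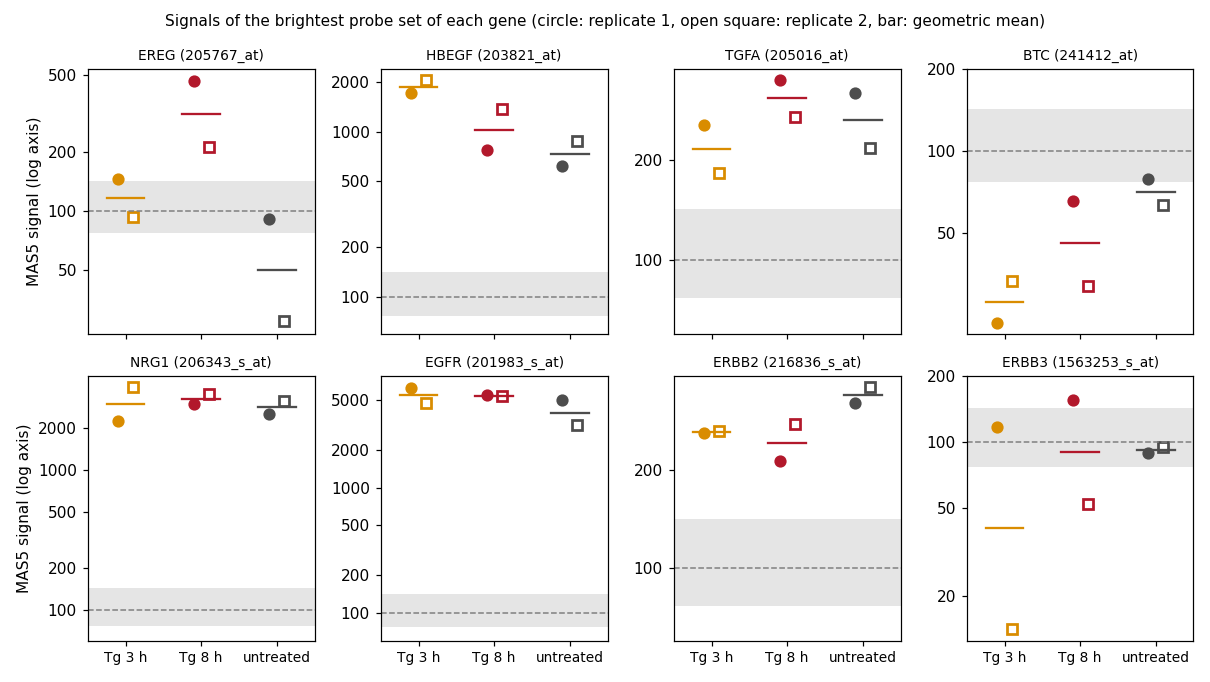
MAS5 signal (log axis) of the brightest probe set of each of the 8 measured genes in Tg 3 h, Tg 8 h and untreated cells. Circles are replicate 1, open squares replicate 2 and bars the geometric mean of the 2 arrays, with a dashed line at 100 and a band at 76.7 to 142, the 95th percentiles of olfactory receptor probe sets. EREG is highest in Tg 8 h (465.6 and 212.6) and HBEGF in Tg 3 h (1700.3 and 2041.5).

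The promoters of EREG and HBEGF are shown because these are the 2 genes with a member called in the blocked fit. They are RefSeq sequences of GRCh38.p14, each of 300 bases, 250 before and 50 after the annotated start. They were searched on both strands for the UPR element core (TGACGTG), the cyclic AMP response element (TGACGTCA), the composite element of ATF4 (TGATGNAA), the AP-1 site (TGANTCA), the CCAAT box, the TATA box (TATAAA) and the GC box (GGGCGG). Capitals mark the matches, on either strand. The EREG promoter lies at chr4:74364895-74365194 on the plus strand and the HBEGF promoter at chr5:140346554-140346853 on the minus strand.
EREG: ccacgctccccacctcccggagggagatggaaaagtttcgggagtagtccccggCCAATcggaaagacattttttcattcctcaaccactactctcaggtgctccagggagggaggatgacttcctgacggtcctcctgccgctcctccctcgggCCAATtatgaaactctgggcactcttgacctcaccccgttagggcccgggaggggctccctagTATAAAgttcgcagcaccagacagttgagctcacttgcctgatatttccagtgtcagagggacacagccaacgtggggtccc
HBEGF: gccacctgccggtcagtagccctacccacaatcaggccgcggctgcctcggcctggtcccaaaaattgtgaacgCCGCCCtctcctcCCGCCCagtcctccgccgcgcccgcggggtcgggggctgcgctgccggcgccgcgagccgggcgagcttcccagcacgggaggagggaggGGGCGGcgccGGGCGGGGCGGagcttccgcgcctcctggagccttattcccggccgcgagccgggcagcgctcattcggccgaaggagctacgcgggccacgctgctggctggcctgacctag
EREG held CCAAT at positions -196 and -95 and TATAAA at -32, counted from the start. HBEGF held 5 GC boxes, at -176, -163, -73, -63 and -58, of which the last 2 overlap. Neither held any of the 4 stress-element or AP-1 patterns. Over the 35116 promoters of this length, TGACGTG occurred in 1.97%, TGACGTCA in 1.85%, TGATGNAA in 3.62% and TGANTCA in 7.71%, against 34.6% for CCAAT, 11.5% for TATAAA and 45.0% for GGGCGG. A match is a run of letters and not a bound site, and other windows were not searched. In the RefSeq gene order on chromosome 4, EPGN, EREG, AREG and BTC follow each other, and of these EREG and BTC were measured here.

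NRG1, neuregulin 1, a ligand of ERBB3 and ERBB4, is read by 6 probe sets, which share 1 gene and are not independent. The brightest, 206343_s_at, had 2240.1 and 3907.0 in Tg 3 h, 2981.0 and 3533.0 in Tg 8 h, and 2538.2 and 3126.7 in untreated cells. The treated and untreated arrays overlapped, with log2 fold changes of 0.07 at 3 h and 0.20 at 8 h. The probe set 206237_s_at behaved differently, at 879.2 and 1382.5 in Tg 3 h, 953.0 and 1746.4 in Tg 8 h, and 804.1 and 619.1 in untreated cells. Its log2 fold change was 0.64 at 3 h (95% interval -0.16 to 1.45) and 0.87 at 8 h (95% interval 0.06 to 1.68; unadjusted p = 0.0379, adjusted p = 0.462). Most of that came from replicate 2, with 0.25 within replicate 1 and 1.5 within replicate 2 at 8 h.

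The dimmer NRG1 probe sets also had treated arrays above untreated ones. At 8 h the log2 fold change was 0.30 in 208230_s_at, 0.54 in 208231_at and 0.60 in 208241_at, and at 3 h it was 0.27, 0.40 and 0.85 in the same order. None of these passed a test in either fit. The probe set 208232_x_at, whose suffix marks probes that can also bind other transcripts, ranged from 10.9 to 120.3 and gave 2.55 within replicate 1 and -2.06 within replicate 2 at 3 h. Averaged over all 6 probe sets, NRG1 was 0.41 above untreated cells at 3 h and 0.69 above at 8 h on the log2 scale. The mean at 8 h includes 1.64 from 208232_x_at, which was 0.03 with signals under 100 raised to 100. It therefore rests in part on a probe set near background, and a growth of NRG1 between the times was not read from it.

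TGFA encodes transforming growth factor alpha, a ligand of EGFR. Its brightest probe set, 205016_at, had 256.1 and 183.4 in Tg 3 h, 350.2 and 269.9 in Tg 8 h, and 318.7 and 217.8 in untreated cells. The groups overlapped, with log2 fold changes of -0.28 at 3 h and 0.22 at 8 h (95% interval -0.60 to 1.04). The probe set 211258_s_at had 131.9 and 39.9 in Tg 3 h, 119.8 and 41.5 in Tg 8 h, and 19.3 and 26.4 in untreated cells. All 4 treated arrays were above both untreated arrays, but only those of replicate 1 exceeded 100. Its log2 fold changes of 1.68 at 3 h and 1.64 at 8 h were 0.20 and 0.13 with signals under 100 raised to 100. The probe set 205015_s_at was near background throughout, at 4.7 to 30.5.

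BTC, betacellulin, a ligand of EGFR and ERBB4, was near background and was not tested. The probe set 241412_at had 23.4 and 33.4 in Tg 3 h, 65.3 and 32.0 in Tg 8 h, and 78.7 and 63.1 in untreated cells, all under 100. In 207326_at a single array exceeded 100, Tg 8 h replicate 1 at 123.4, beside 41.8 on the other 8 h array. The remaining arrays of that probe set had 31.6 and 1.5 in Tg 3 h and 6.5 and 22.5 in untreated cells.

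EGFR, the receptor shared by most of these ligands, was measured well above background by 3 probe sets. In 201983_s_at the signals were 6300.4 and 4722.8 in Tg 3 h, 5445.8 and 5350.9 in Tg 8 h, and 4980.3 and 3166.0 in untreated cells. At 8 h both arrays were above both untreated arrays, and at 3 h the groups overlapped. The log2 fold change was 0.46 at 3 h and 0.44 at 8 h (95% interval -0.18 to 1.06; adjusted p = 0.134 with the block). In 224999_at the signals were 2808.8 and 2194.8 in Tg 3 h, 2727.3 and 2745.4 in Tg 8 h, and 2088.2 and 1800.7 in untreated cells, with no overlap at either time. Its log2 fold change was 0.36 at 3 h and 0.50 at 8 h (95% interval 0.01 to 0.98; unadjusted p = 0.0458, adjusted p = 0.490, and 0.0708 with the block).

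The third EGFR probe set, 201984_s_at, had 899.1 and 891.8 in Tg 3 h, 764.5 and 1348.9 in Tg 8 h, and 639.4 and 896.9 in untreated cells. Its groups overlapped at both times, with log2 fold changes of 0.24 and 0.42. Another, 211551_at, was at 104.6 to 200.9 and gave 0.29 at 3 h and -0.03 at 8 h. The mean of these 4 probe sets was 0.34 above untreated cells at 3 h and 0.33 above at 8 h. The upper ends of the 95% intervals leave room for a rise of EGFR of about 1 log2 unit at 8 h, so an unchanged receptor was not shown. The other 5 EGFR probe sets were near background in most groups and were not tested.

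ERBB2, the coreceptor without a ligand of its own, was the one member with both treated arrays below both untreated arrays at each time. That order was found in 15.9% of all tested probe sets at 3 h and 24.5% at 8 h, so it is not read as a fall of ERBB2. In 216836_s_at ERBB2 had 259.6 and 264.5 in Tg 3 h, 214.2 and 276.5 in Tg 8 h, and 322.2 and 361.7 in untreated cells. The log2 fold change was -0.38 at 3 h (95% interval -1.07 to 0.31) and -0.49 at 8 h (95% interval -1.18 to 0.20; adjusted p = 0.661). Both replicates had this sign, with -0.31 and -0.45 at 3 h and -0.59 and -0.39 at 8 h, but neither fit called it. The 2 other ERBB2 probe sets did not exceed 53.8.

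ERBB3, the neuregulin receptor, was near background in untreated cells in all 5 of its probe sets. The brightest, 1563253_s_at, had 116.9 and 14.1 in Tg 3 h, 155.6 and 52.0 in Tg 8 h, and 89.4 and 94.9 in untreated cells. The 2 experiments moved in opposite directions at 3 h, by 0.39 within replicate 1 and -2.75 within replicate 2, so no direction was read. The other 4 probe sets ranged from 3.0 to 103.0. Thus NRG1 was measured well above background, whereas its receptor ERBB3 was not, in the same cells.

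**Figure D3:**
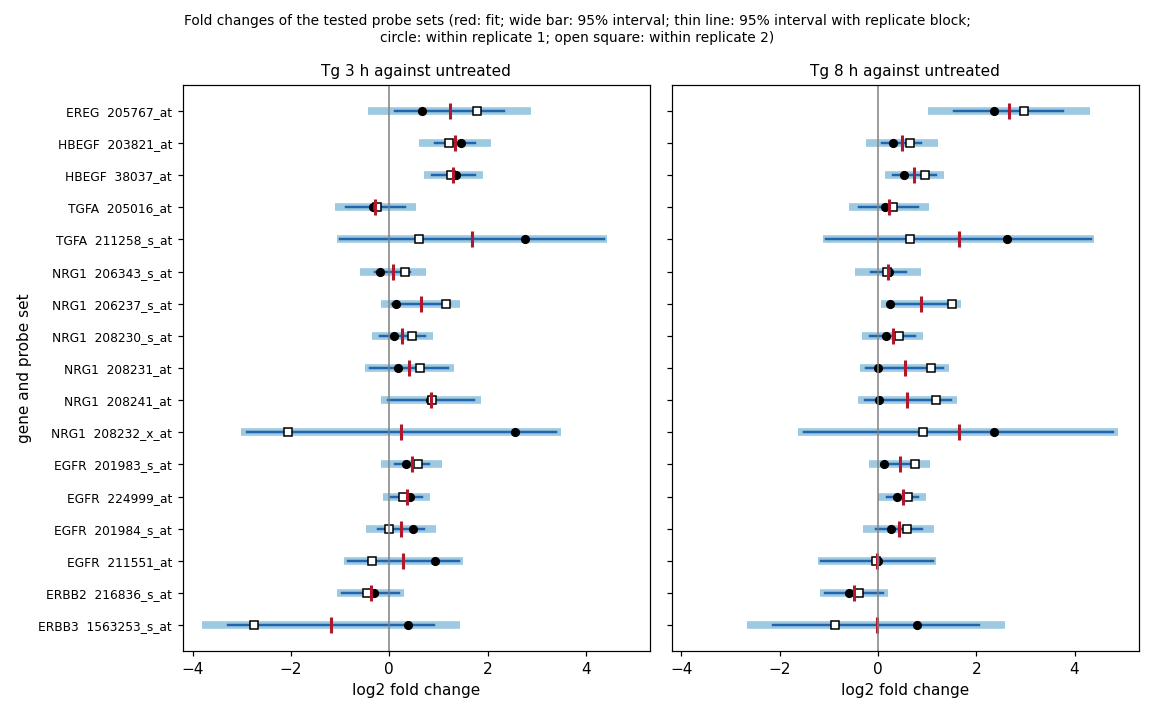
Log2 fold change of the 17 tested member probe sets, Tg 3 h (left) and Tg 8 h (right) against untreated cells. Red marks are the fit, wide bars its 95% interval, thin lines the 95% interval with the replicate block, circles the difference within replicate 1 and open squares that within replicate 2. The intervals without the block clear 0 for both HBEGF probe sets at 3 h and, at 8 h, for EREG, HBEGF 38037_at, NRG1 206237_s_at and EGFR 224999_at. The dim probe sets of TGFA, NRG1 and ERBB3 have the widest intervals.

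The arrays also differ by experiment. Of 6 UPR genes taken as a check of the treatment, limma called 1 at 3 h and 4 at 8 h and the blocked fit called all 6 at both times, with DDIT3, the stress factor CHOP, at a log2 fold change of 4.38 at 3 h and 4.41 at 8 h. The median signal was 84.8 to 103 on replicate 1 arrays and 69.7 to 75.3 on replicate 2 arrays, and the hybridization controls had a geometric mean of 7762 to 11671 on replicate 1 and 2718 to 2840 on replicate 2. Markers of the labelled cells were mixed. Of 8 neural and cerebellar progenitor markers, 6 were at 100 or more on all arrays, but ATOH1 was under 100 on all of them (5.2 to 80.8). None of 4 astrocyte markers was at 100 or more on all arrays. GFAP was at 3.2 to 28.1, but SLC1A3 reached 100 on 5 arrays (71.7 to 301.5). Of the mesenchymal markers 4 of 5 and of the epithelial markers 3 of 4 were at 100 or more on all arrays, against 1 of 4 neuron markers, 0 of 4 endothelial markers and 0 of 3 immune markers. Under 100 on all arrays were 0 of the endothelial markers and 2 of the immune ones. The endothelial KDR (62.8 to 224.5) and TEK (94.6 to 358.9) reached 100 on 5 arrays each. In this bulk RNA, fewer cells making a transcript and less transcript per cell cannot be told apart.

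The remaining ligands of the family and ERBB4 were mostly under the filter. Of 6 such genes 5 had a probe set and 1 was tested, EGF itself, with 104.0 and 174.0 in Tg 3 h, 100.8 and 180.3 in Tg 8 h, and 62.1 and 189.0 in untreated cells, all overlapping. Genes of ligand shedding and transport, the proteases and rhomboid-like partners that free the ligands, showed no call among 10 tested at either time in limma or in the blocked fit. Of the 12839 genes tested, limma called 0.0701% as higher in Tg 3 h and 0.0% as lower, and the blocked fit 1.17% as higher and 0.0779% as lower. For Tg 8 h, limma called 0.646% as higher against 0.21% as lower, and the blocked fit 4.76% as higher against 3.79% as lower. At an unadjusted p under 0.05, limma had 0 shedding genes at 3 h and 1 higher at 8 h. Among all genes tested, 3.26% were higher and 1.24% lower in Tg 3 h at that threshold. In Tg 8 h 5.44% were higher and 6.64% lower. ADAM17, the main sheddase of these ligands, had 2405.2 and 2358.8 in Tg 3 h, 2747.3 and 2952.5 in Tg 8 h, and 2025.8 and 2079.5 in untreated cells. Its arrays did not overlap, and its log2 fold change of 0.47 at 8 h had an adjusted p of 0.061 with the block. ADAM17 was chosen for mention after its values were seen.

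A list of 15 genes of receptor inhibition and degradation, 14 of them tested, held inhibitors of the receptors and ubiquitin ligases that act on them. It also held the trafficking genes EPS15, HGS, STAM and STAM2. Limma called 0 at either time, the local pooled error test 0, and the blocked fit 2 higher and 0 lower at each time. Of all genes tested, the blocked fit called 1.17% higher and 0.0779% lower in Tg 3 h. For Tg 8 h those shares were 4.76% and 3.79%. At an unadjusted p under 0.05, limma had 3 higher in Tg 3 h with 0 lower, and 2 higher in Tg 8 h with 1 lower. At that threshold 3.26% of all genes tested were higher in Tg 3 h and 1.24% lower. For Tg 8 h the shares were 5.44% higher and 6.64% lower. CBLB, a ubiquitin ligase of activated receptors, had 1294.8 and 1471.3 in Tg 3 h, 1307.1 and 1479.3 in Tg 8 h, and 449.3 and 765.6 in untreated cells. All treated arrays of CBLB were above both untreated ones, and its log2 fold change was 1.23 at 3 h and 1.25 at 8 h, both called in the blocked fit (adjusted p = 0.015 for 3 h, 0.00435 for 8 h). ERRFI1, also called MIG6, which binds and inhibits the EGFR kinase, had 15155.7 and 17826.4 in Tg 3 h, 13339.6 and 12341.2 in Tg 8 h, and 6964.3 and 11372.8 in untreated cells. It was called in the blocked fit at 3 h (log2 fold change 0.89, adjusted p = 0.0492). RNF41, a ligase that acts on ERBB3, was called there at 8 h (1.12, adjusted p = 0.0255). LRIG3 of the same list went the other way, with 168.6 and 128.7 in Tg 8 h and 265.9 and 334.2 in untreated cells. Its log2 fold change was -0.48 at 3 h and -1.02 at 8 h, with no call in either fit. Among 16 tested adaptors and signalling enzymes limma called 0 and had 0 at an unadjusted p under 0.05 at both times. The blocked fit called 1, SOS2, an activator of RAS, higher at 8 h (0.73, adjusted p = 0.0265), where it called 4.76% of all genes tested higher. SOS2 had 1233.5 and 1873.5 in Tg 8 h and 660.3 and 1273.7 in untreated cells, which overlapped.

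The 17 ERK-responsive target genes, all tested, were the pathway list with the most members called higher in the blocked fit. Their median log2 fold change was 0.65 at 3 h and 0.54 at 8 h, against -0.02 and -0.09 over all genes tested. Limma called 0 at 3 h and 1 higher at 8 h, against 0.0701% and 0.646% of all genes tested called higher. At an unadjusted p under 0.05 it had 10 higher at 3 h and 7 at 8 h, with 0 lower. At that threshold 3.26% of all genes tested were higher in Tg 3 h and 1.24% lower. In Tg 8 h 5.44% were higher and 6.64% lower. The blocked fit called 7 higher at 3 h and 6 at 8 h and 0 lower, and the local pooled error test 0 at 3 h and 4 higher at 8 h. Of all genes tested, the blocked fit called 1.17% higher and 0.0779% lower in Tg 3 h. For Tg 8 h those shares were 4.76% and 3.79%. Over all probe sets tested, the local pooled error test called 51 at 3 h and 268 at 8 h. The ERK-responsive genes also answer to other signals, and the part of the EGF family in their levels was not tested. The list was drawn up with earlier results of these data known, and its 2 comparisons share the untreated arrays.

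PHLDA1, a growth-factor-inducible gene, was the one called in limma. It had 4736.6 and 6565.3 in Tg 3 h, 6779.4 and 7990.0 in Tg 8 h, and 2211.6 and 2844.3 in untreated cells, with no overlap. At 8 h its log2 fold change was 1.55 (SE 0.24, adjusted p = 0.0422, and 0.000135 with the block), and the call in limma was lost when any 1 of the 6 arrays was left out, with adjusted p up to 0.272 over the alternatives. SPRY4, a feedback inhibitor of receptor tyrosine kinase signalling, had 476.5 and 671.0 in Tg 3 h, 463.7 and 844.9 in Tg 8 h, and 107.2 and 222.8 in untreated cells. In the blocked fit it was higher by 1.87 log2 units in Tg 3 h, with an adjusted p of 0.00563, and by 2.02 in Tg 8 h, with one of 0.00116. Its relative SPRY2 had 2893.5 and 1870.7 in Tg 3 h, 1263.3 and 1174.2 in Tg 8 h, and 813.7 and 763.3 in untreated cells. SPRY2 was called in Tg 3 h by the blocked fit, at 1.56 (adjusted p = 0.00276), and both of its 8 h arrays lay below both 3 h arrays. The 2 tested HBEGF probe sets also had this order, but so did 20.9% of all tested probe sets, so it is not read as a shared pattern. DUSP5, a phosphatase of nuclear ERK, had 1107.3 and 1807.0 in Tg 3 h, 1771.6 and 2179.6 in Tg 8 h, and 663.9 and 716.9 in untreated cells. The blocked fit called it in Tg 3 h, by 1.04 (adjusted p = 0.026), and in Tg 8 h, by 1.51 (adjusted p = 0.00112). Not every member was higher, and FOS gave -0.41 at 3 h and -1.37 at 8 h with no call in either fit.

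**Figure D4:**
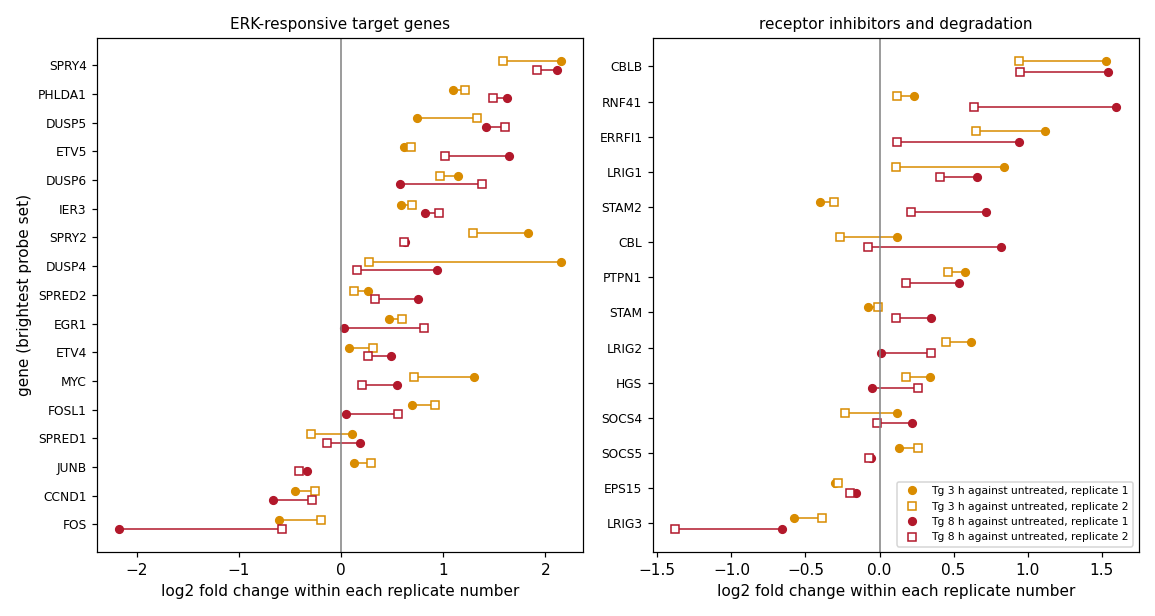
Log2 fold change against untreated cells within replicate 1 (circles) and replicate 2 (open squares), Tg 3 h in orange and Tg 8 h in red, for the 17 ERK-responsive target genes (left) and the 14 tested receptor inhibitors and degradation genes (right), each in its brightest probe set and ordered by the 8 h value. SPRY4, PHLDA1 and DUSP5 lie to the right of 0 in both replicates at both times, as does CBLB in the right panel. Others in both panels do so too, such as SPRY2 and ERRFI1. FOS and LRIG3 are among those to the left of 0 in both replicates at both times.

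The genes whose signals followed a member most closely over the 6 arrays were ranked by Pearson's r of log2 signals, among 7989 genes whose mean signal reached 500 in 1 group or more. For EREG they were AMPD2 (r = 0.993), RCHY1 (r = 0.988) and SPCS2 (r = 0.987), and 132 genes reached 0.9. For HBEGF they were BCL7B (r = 0.993), SH3BP5L (r = 0.985) and CLK1 (r = 0.984), and 76 genes reached 0.9. For EGFR they were SRGAP1 (r = 0.988), CRYBG3 (r = 0.982) and C8orf76 (r = 0.982), and 44 genes reached 0.9. These are descriptions over 6 arrays that share their experiment and scaling, among many candidates. SPCS2, a subunit of the signal peptidase, had 7622.3 and 5891.3 in Tg 3 h, 11423.8 and 8632.8 in Tg 8 h, and 6681.6 and 4467.1 in untreated cells. Its likeness to EREG follows from the ranking, and its 3 h arrays overlapped the untreated ones, unlike those of EREG.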

How the data were processed

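Labelled RNA of Daoy cells was hybridized to 6 HG-U133 Plus 2.0 arrays, a pair for each group. The deposited values are linear MAS5 intensities, 1 for each probe set, and the authors had scaled the arrays to a trimmed mean that came to 500.1 on all 6. The number of arrays limits the precision. Signals were log2-transformed, and probe sets reaching a signal of 100 on 2 or more arrays (27616 of 54675) were tested with limma 3.58.1 in R 4.3.3 (lmFit, then eBayes with an intensity trend), two-sided, with Benjamini-Hochberg adjustment over all of them and a threshold of 0.05. All 6 arrays and 3 groups entered 1 fit, which left 3 residual degrees of freedom. Tables and figures were made in Python 3.11.15 with pandas 2.3.3 and matplotlib 3.10.9. The fits were tested on simulated data.

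Symbols came from GEO's platform annotation, where 41097 probe sets had 1 symbol, 1801 several and 11777 none. A gene in a list was read from its own probe set with the highest mean log2 signal. The members, the lists and the tests were chosen with earlier results of these data known. The genes named are all members, up to 4 genes of each list with the largest change among those passing either fit, those with non-overlapping groups and a fold of at least 4, and the 3 genes most like EREG, HBEGF and EGFR. ADAM17, EGF, LRIG3, FOS, DDIT3 and single markers were picked with their values in view.

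The replicate numbers were checked as pairs. Deviations from the group mean correlated between same-numbered arrays of any 2 groups, at 0.2594 to 0.3228 across the tested probe sets and at 0.6569 to 0.6998 across the 12451 whose mean signal reached 500, so the numbers pair the arrays. The study's methods name no block, so the fit without it is the reported one, and the fit with the replicate number as a term is given beside it. Each comparison was also run with a local pooled error test, without the intensity trend, and after quantile normalization or median centring. Other runs had no filter or one of 200, a floor of 100 or a pseudocount of 50. Further runs used only the 4 arrays compared or left out each array. The local pooled error test was written here after the kind the methods name, so its calls need not equal the study's. For genes with several tested probe sets, log2 differences of their mean were also taken, without a test. Detection calls were not used here.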

Additional observations from a re-analysis of the deposited data

How the results depend on the processing

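Of 584 values of member log2 fold changes under the alternatives, 560 kept their direction and their side of the threshold. Another 4 passed only with the replicate block (EREG at 8 h, both HBEGF probe sets at 3 h and 203821_at at 8 h against 3 h). The other 20 changed sign, in probe sets with log2 fold changes near 0 or with signals near or under 100 on some arrays. ERBB3 at 3 h, at -1.18 in limma, is of the second kind. With the block, members called were 2 at 3 h, 1 at 8 h and 1 between the times, against 0 in each without it, and 0 under every other alternative, including each array left out (0 to 0). Among all probe sets, calls at 3 h, at 8 h and between the times were 15, 182 and 0 as reported, 274, 1819 and 678 with the block, 51, 268 and 55 in the local pooled error test, 0, 0 and 0 without the trend, 28, 175 and 0 with quantile normalization, 8, 47 and 0 with median centring, 24, 201 and 0 without a filter, 5, 107 and 0 with the floor of 100, and 8, 94 and 0 with only the 4 arrays compared. With each array left out they were 0 to 34, 2 to 203 and 0 to 0. The lowest counts came without Tg 3 h replicate 1 at 3 h and without Tg 8 h replicate 1 at 8 h.

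Calls among receptor inhibitors and degradation genes were 2 at each time with the block and 0 otherwise. ERK-responsive genes called were 7 at 3 h with the block and 0 otherwise. At 8 h they were 1 as reported, 6 with the block, 4 in the local pooled error test, and 0 without the trend, with median centring, with the floor, with 4 arrays and with any array left out (0 to 0). The alternatives for these lists were added after the data had been seen.

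The signs that changed were those of NRG1 206343_s_at at 3 h (-0.04 with median centring, -0.33 to 0.47 with an array left out), NRG1 208232_x_at at 3 h (-1.49 to 1.98), EGFR 201984_s_at at 3 h (-0.00 to 0.49), EGFR 211551_at at 3 h (-0.17 to 0.76) and at 8 h (0.07 quantile, 0.06 median centring, -0.21 to 0.16), TGFA 205016_at at 8 h (-0.05 to 0.50), ERBB3 at 3 h (0.11 with the floor, -2.71 to 0.34) and ERBB3 at 8 h (0.12 quantile, 0.05 median centring, 0.32 floor, 0.03 pseudocount, -0.82 to 0.76). The causes were not tested. With 2 arrays per group and signals near background, changes in BTC, ERBB3 and the dim probe sets of TGFA and NRG1 were not resolved.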
